A study of Mus musculus with 2 samples.

Results

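Acetylated promoters of low CpG content were 1360 of the 10969 promoter peaks in the authors' replicated list of H3K27ac peaks from unstimulated mouse macrophages. The list held 32877 peaks in all. A peak was taken as a promoter peak when its midpoint lay within 1 kb of the nearest start of a protein-coding transcript in GENCODE mouse release M21. It was taken as low in CpG when the 1000 bp centred on that start had a CpG observed/expected ratio under 0.4, that is, the number of CpG dinucleotides times the length, divided by the product of the numbers of C and G. The other 9609 promoter peaks, at 0.4 or above, served as the comparison. The low-CpG peaks thus made up 12.4% of promoter peaks (95% Wilson interval 11.8 to 13.0). They belonged to 1206 protein-coding genes, 5.50% of the 21938 annotated.

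The cells were primary macrophages of C57BL/6J mice, derived from bone marrow and left without stimulation, with no other genotype or agent recorded. They form 1 group of 2 biological replicates, which are separate biosamples under a shared donor entry, and variation from animal to animal may be missing from their spread. The labels record neither age nor sex and give the developmental stage as unknown. The mark was mapped by chromatin immunoprecipitation followed by sequencing (ChIP-seq), and 4 peak lists were deposited.

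Most mammalian promoters lie in CpG islands, stretches that escaped the loss of CpG seen in the rest of the genome because they stay unmethylated in the germ line. Promoters outside islands keep few CpG, belong mostly to genes used in particular cell types, and in macrophages include many genes of receptors and secreted proteins. Acetylation of histone H3 at lysine 27 is laid down by p300 and CBP at active promoters and enhancers, and is absent from the nucleosome-free gap that opens at an active start.

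The contrast that the rule draws can be read from the bases of a pair of promoters. Each is shown from 250 bp before to 50 bp after the start, on the gene's strand, as read from the GRCm38 genome, with every CpG in capitals. Clec12a, an inhibitory C-type lectin of myeloid cells, is the example of a low-CpG promoter. Its acetylated start is an internal one, 7273 bp from the annotated 5′ end of the gene, and the sequence spans chr6:129349714-129350013 on the plus strand (GRCm38). Ubb, which encodes polyubiquitin, had the highest fold of the other promoter peaks, and its sequence spans chr11:62550921-62551220 on the plus strand. The Clec12a window holds 1 CpG and the Ubb window 33. The observed/expected ratio was 0.150 at Clec12a, against a median of 0.246 in the low-CpG class. It was 0.930 at Ubb, against a median of 0.771 in the other class. The pair thus shows a wider contrast than the class medians do.
Clec12a: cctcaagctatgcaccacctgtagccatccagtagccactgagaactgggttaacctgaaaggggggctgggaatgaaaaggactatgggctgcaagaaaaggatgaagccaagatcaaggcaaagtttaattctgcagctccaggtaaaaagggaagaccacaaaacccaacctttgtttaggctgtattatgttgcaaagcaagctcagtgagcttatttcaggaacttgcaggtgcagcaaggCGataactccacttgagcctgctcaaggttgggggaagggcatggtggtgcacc
Ubb: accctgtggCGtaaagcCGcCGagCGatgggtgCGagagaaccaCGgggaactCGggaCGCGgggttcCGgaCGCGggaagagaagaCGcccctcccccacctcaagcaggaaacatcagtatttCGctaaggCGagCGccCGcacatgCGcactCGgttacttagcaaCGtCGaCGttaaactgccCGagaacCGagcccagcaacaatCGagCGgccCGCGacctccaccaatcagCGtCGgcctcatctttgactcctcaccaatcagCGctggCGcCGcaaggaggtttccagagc

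A second set shows promoters of chemokine genes among the low-CpG peaks, in the same window and with the letters of searched motifs in capitals. Positions are those of the first capital, counted upstream from the start. The window of the chemokine gene Ccl3 (chr11:83649306-83649605, minus strand) holds the interferon response letters GAAANNGAA on the opposite strand at -62. That of the chemokine gene Ccl12 (chr11:82101595-82101894, plus strand) holds the TATA box letters TATAAA at -31. Such matches describe the letters and show no binding.
Ccl3: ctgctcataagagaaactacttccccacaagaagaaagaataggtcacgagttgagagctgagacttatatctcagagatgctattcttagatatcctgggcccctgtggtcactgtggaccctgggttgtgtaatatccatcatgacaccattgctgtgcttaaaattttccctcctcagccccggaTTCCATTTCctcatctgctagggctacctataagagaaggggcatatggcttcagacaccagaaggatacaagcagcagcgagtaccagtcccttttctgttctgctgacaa
Ccl12: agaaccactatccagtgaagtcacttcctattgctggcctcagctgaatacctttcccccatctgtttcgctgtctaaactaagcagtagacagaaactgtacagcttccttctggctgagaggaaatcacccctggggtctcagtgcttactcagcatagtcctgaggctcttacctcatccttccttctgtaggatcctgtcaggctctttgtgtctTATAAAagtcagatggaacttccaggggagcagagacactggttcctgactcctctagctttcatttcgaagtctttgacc

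The replicates gave like numbers of low-CpG promoter peaks. Classed in its own list, replicate 1 had 1295 of 10136 promoter peaks under 0.4 (12.8%) and replicate 2 had 1284 of 10206 (12.6%), a mean of 12.7% ± 0.138 (SD, n = 2). Each peak carries a fold, a linear ratio that is the authors' own value and is used here to describe and rank peaks within a list. No sequencing depth is stated in the labels, and starts with no peak may still carry some of the mark. In a bulk sample, less mark per cell and fewer cells with the mark cannot be told apart. Of the 8 macrophage markers, 5 had a promoter peak. Among these Csf1r, Adgre1, Itgam and Mrc1 had it at a low-CpG start and Mertk at a CpG-richer start. Of short lists of defining markers of other cells none had one (0 of 5 neutrophil, 0 of 5 T and NK cell, 0 of 3 B cell, 0 of 2 mast cell, 0 of 3 erythroid and 0 of 4 fibroblast markers). Longer lists of genes of other lineages, given further on, did hold some.

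Acetylation was rarer at low-CpG gene starts than at the other gene starts. Over the 21938 annotated gene 5′ ends, 36.3% had a peak midpoint within 1 kb. Of 5′ ends under 0.4, 750 of 8782 did, 8.54%, against 7208 of 13156 at 0.4 or above, 54.8%. In the replicate lists the low-CpG share was 8.10% and 8.04%, against 50.6% and 52.5%. The share climbed with the ratio, at 3.27% of 5′ ends under 0.1, 17.2% from 0.3 to 0.4, 24.3% from 0.4 to 0.5 and 66.7% from 0.8 to 0.9. There was no step at 0.4 itself. The classes lay much further apart than the replicates did. With midpoints within 2.5 kb of the 5′ end the low-CpG share was 13.1%. The size of the contrast depended on the measure. Counted as 5′ ends that lay inside a peak, the shares were 8.49% under 0.4 and 27.7% at 0.4 or above. With 2 replicates an exact sign-flip test cannot give a p under 0.5, so here and below differences are set against the spread between replicates without a test.

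**Figure D1:**
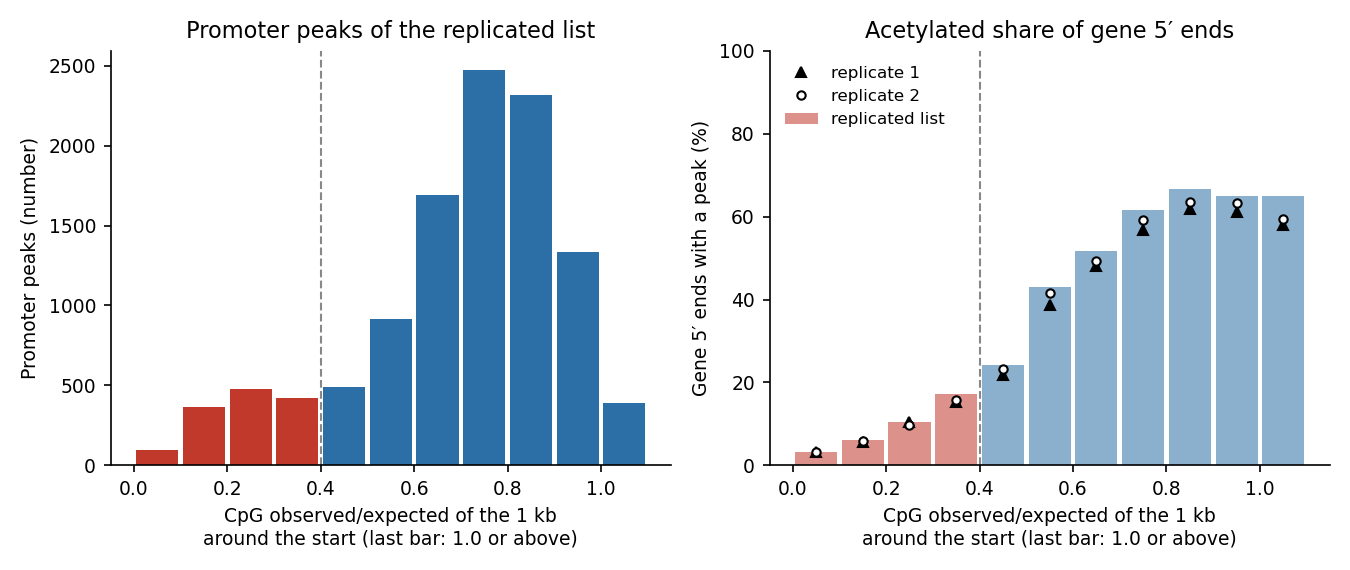
Number of promoter peaks (left) and percentage of annotated gene 5′ ends with a peak midpoint within 1 kb (right) by CpG observed/expected ratio in steps of 0.1; red bars are under 0.4, blue bars at 0.4 or above, and the dashed line marks the threshold. Triangles and open circles give the 2 replicate lists; the acetylated share climbs from 3.27% in the lowest bin to 66.7% between 0.8 and 0.9.

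Low-CpG promoter peaks were wide. Their median width was 1465 bp (quartiles 801 and 2483), against 778 bp (526 and 1180) for the other promoter peaks, a ratio of 1.88. In the replicate lists the medians were 1363 and 1387 bp at low-CpG starts, against 705 and 761 bp, and the ratio averaged 1.88 ± 0.0783 (SD, n = 2). Widths over 2 kb were found in 35.5% of low-CpG peaks and 6.74% of the others, and 68 low-CpG peaks exceeded 5 kb against 42 of the far more numerous others. Peaks over 1 kb from any coding start had a median width of 1159 bp, between both classes. Width moved with fold, but the low-CpG peaks were wider in each of the 10 deciles of the list by fold, by ratios of 1.32 to 1.99. In the highest decile the medians were 3468 and 1747 bp. CpG-richer peaks were more often split around the start, as given below. When peaks with gaps of at most 1 kb were joined, an alternative chosen after the data were seen, the medians became 2110 and 1602 bp and the ratio 1.32.

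By fold, the low-CpG class was spread over both ends of the list. Its median fold was 8.79, against 7.14 for the other promoter peaks, and its median percentile rank among all peaks of the list was 64.2, against 55.7. The median ranks in the replicate lists were 64.1 and 63.5 at low-CpG starts and 53.1 and 54.3 at the others. Of low-CpG peaks 19.3% (262) stood in the highest decile of the list, against 7.36% (707) of the others, and 7.13% against 3.40% stood in the lowest decile. Peaks over 1 kb from coding starts had a median rank of 45.8, with 10.6% in the highest decile. The highest fold of all belonged to the CpG-richer class (Ubb, 60.9), and the highest low-CpG fold was 53.2. The 116 low-CpG peaks (8.53%) that also covered a CpG-rich start had a median rank of 85.4. Without them the median rank of the class was 60.9, and with starts of all transcripts of protein-coding genes, whatever their type, the difference shrank to 3.51 points. Both alternatives were chosen after the data were seen. The difference was 2.60 points with midpoints within 2.5 kb of a start and 5.31 points with CpG counted over 2 kb.

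**Figure D2:**
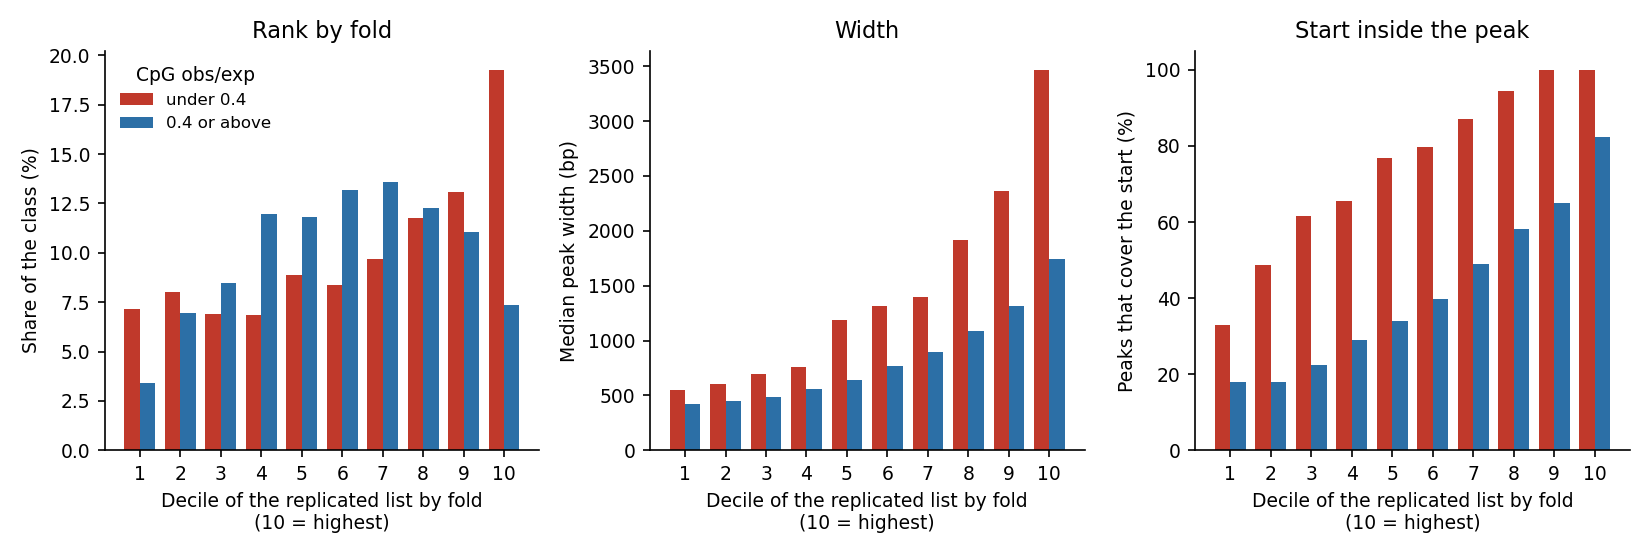
Low-CpG (red, under 0.4) and other (blue, 0.4 or above) promoter peaks of the replicated list in each decile of all 32877 peaks by fold, 10 being the highest: share of each class (left, %), median peak width (middle, bp) and share of peaks that cover the nearest start (right, %). The low-CpG class holds 19.3% of its members in decile 10 against 7.36%, and its bars are taller in every decile of the middle and right panels.

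At low-CpG promoters the peak lay over the start itself, whereas at CpG-richer promoters it often lay to the side. The nearest start was inside the peak for 80.4% of low-CpG peaks (1094), against 43.5% of the others (4179). The replicate lists gave 77.1% and 79.0%, against 39.0% and 44.8%. A start in a gap with peaks within 1 kb on either side was found for 2.79% of low-CpG peaks (38), against 34.0% of the others (3270). Peaks over 2 kb cover the start by construction of the rule, so the comparison was repeated for peaks of over 1 to 2 kb, where 89.9% and 63.0% covered it. Within each decile of the list by fold the low-CpG share was also the higher, from 32.99% against 18.04% in the lowest decile to 100% against 82.3% in the highest.

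The profile of peak coverage around starts showed the same shape from base to base. Of 1322 distinct low-CpG starts, 84.0% were covered at the start, 79.1% at 300 bp upstream and 82.5% at 300 bp downstream. Of 8789 distinct CpG-richer starts, 50.8% were covered at the start, 70.3% at 300 bp upstream and 70.9% at 300 bp downstream. The dip at the start thus stood in the CpG-richer class and not in the low-CpG class. It was present in both replicate lists, where coverage at the start was 72.2% and 75.3% for low-CpG starts, against 39.0% and 47.3%. At 2 kb on either side, low-CpG starts were still covered in 22.2% upstream and 22.4% downstream, against 8.76% and 11.3%.

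**Figure D3:**
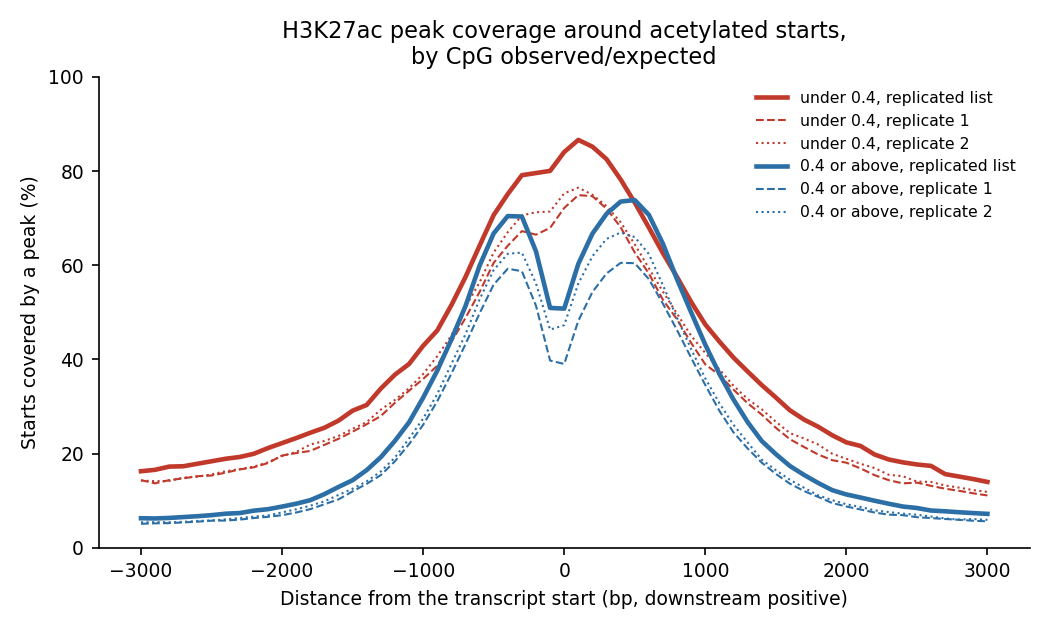
Percentage of distinct starts covered by an H3K27ac peak at each distance from the start (bp, every 100 bp to 3 kb on either side), for low-CpG starts (red, n = 1322) and the other acetylated starts (blue, n = 8789); thick lines are the replicated list and thin lines the replicate lists. Coverage at the start is 84.0% in red against 50.8% in blue, where a dip lies between shoulders of about equal height.

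How often both replicates held the peaks of each class depended on fold and on the choice of starts. A peak of each replicate list overlapped 81.5% of low-CpG peaks (1108), against 80.1% of the others (7700), where all promoter peaks gave 80.3% and all peaks of the list 74.5%. Replicate 1 alone held 86.0% of the low-CpG peaks against 84.4%, and replicate 2 held 87.5% against 88.0%, so the direction differed between replicates. The difference in the share held by both, 1.34 points, was -1.92 points with midpoints within 2.5 kb, -1.71 with starts of all transcripts and -0.310 without low-CpG peaks that cover a CpG-rich start. Of the remaining low-CpG peaks, 61 were met in replicate 1 only, 82 in replicate 2 only and 109 in neither. The replicated list itself was called on both libraries together. Those 252 peaks were weak and narrow, with medians of 3.32 in fold and 546 bp in width. From decile 7 by fold upward every promoter peak of both classes was in both replicate lists. In each of deciles 1 to 6 the low-CpG share was the higher, at 45.7% against 32.6% in decile 3 and 79.6% against 69.1% in decile 4. Low-CpG peaks were also the wider in these deciles, with medians of 699 against 482 bp and 762 against 557 bp, and the part of width in the overlap was not tested. Weighted to the decile mix of the low-CpG class, the others were in both lists for 78.4%, against 81.5% of the low-CpG peaks. With an overlap of 50% of both peaks the shares of the whole classes were 74.5% and 74.3%.

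The ratio of folds between replicates lay within a fixed range more often at low-CpG promoters. Where several peaks of a replicate overlapped, the one of highest fold was used. Among peaks present in both lists, the ratio of the replicate 2 fold to the replicate 1 fold lay between 0.8 and 1.25 for 84.6% of low-CpG peaks, against 74.8% of the others. The median ratio was 1.01 at low-CpG starts and 1.05 at the others, so the range was less well centred for the others. The 5% quantiles of the ratio were alike, at 0.768 and 0.773, and the 95% quantiles were 1.31 and 1.48. The part of this offset in the contrast was not tested. Across peaks, which share their libraries and are not independent, Spearman's rho was 0.97 over 1108 low-CpG peaks and 0.92 over 7700 others, given as a description. The low-CpG peaks in both lists were also the stronger, with a median fold of 11.2, against 8.53. With the others weighted to the same mix of fold deciles, the shares between 0.8 and 1.25 were 84.6% and 78.6%, and the low-CpG share was the higher in 8 of the 10 deciles. In deciles 1 and 2, with 4 and 21 low-CpG peaks, it was the lower.

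Many low-CpG peaks lay at internal starts. The nearest start was within 1 kb of the annotated 5′ end of its gene for 51.9% of low-CpG peaks (706), against 88.4% of the others, and the remaining 654 were nearest to a start further inside. Whether these internal starts were in use was not tested, and the mark also stands at enhancers. The internal peaks had a median width of 1499 bp and a median rank of 60.6, and those near the 5′ end 1451 bp and 66.4. Shared promoters were uncommon, as another gene started within 1 kb in 3.60% of low-CpG cases (49), against 14.8%. GC content of the 1 kb around the start had a median of 50%, against 60%, and 11.9% of its bases were marked as repeats, against 6.80%.

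Low-CpG promoter peaks also had more H3K27ac peaks around them. The mean number of peaks within 25 kb that were over 1 kb from every coding start was 1.94, against 1.30, or 1.38 when the others were weighted to the same mix of fold deciles. No such peak was found near 28.0% of low-CpG peaks and 42.3% of the others, and 5 or more near 11.7% and 4.74%. The low-CpG mean was the higher in each of the 10 deciles, with 2.60 against 1.82 in the highest.

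The 15 strongest low-CpG peaks by fold belonged to genes of varied function. Zfp36, which encodes tristetraprolin, a protein that destabilizes cytokine mRNAs, came first. Its peak at chr7:28373614-28386790 (GRCm38) was 13177 bp wide, with a fold of 53.2 in the replicated list and 50.2 and 48.4 in the replicates, and it also covers a CpG-rich start. Slc15a3, a lysosomal transporter of peptides and histidine, had a fold of 51.9 (49.04 and 47.93 in replicates 1 and 2). Fes, a tyrosine kinase of myeloid cells, had 50.9 (47.7 and 45.4). Csf1r, whose product receives the survival signal of macrophages, had 50.6 (48.4 and 35.7) over 11333 bp, at a start 4974 bp from the annotated 5′ end. Blnk, an adaptor of B cell and macrophage signalling, had 50.2 (48.0 and 41.7). These 5 stood in the highest decile of every list, and Csf1r had the widest gap between replicates.

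Ranks 6 to 15 by fold ran from 48.4 to 44.8. They were the phosphoinositide phosphatase gene Synj2 (48.4), the integrin activator Fermt3 (48.3), the kinase Mknk2 (48.1), Emp3 (47.7), Speg (47.5), the DAP10 adaptor gene Hcst (47.0), Frmd4b (46.4), the phosphatase activator Ptpa (45.4), the Toll-like receptor homologue Cd180 (45.0) and Lrch4 (44.8). The peaks of Synj2, Speg, Frmd4b and Ptpa were nearest to starts 66317, 24788, 186112 and 25814 bp inside their genes. Cd180 had one of the widest peaks, 13784 bp at chr13:102687658-102701441, and 49.04 and 42.26 fold in the replicates. Wider still were Plec, a cytoskeletal linker gene (14574 bp, fold 26.7), and Rcbtb2 (13977 bp, fold 37.4), and Evi2b, a membrane protein gene of leukocytes, followed (13642 bp, fold 36.9). Some of these widths hold for the list made from both libraries alone. The Plec peak was met as 5 peaks in replicate 1 and 4 in replicate 2. The overlapping peak of highest fold was 5535 bp wide in replicate 1 and 11064 bp in replicate 2 at Zfp36, and 6899 and 6476 bp wide at Csf1r. Like that of Zfp36, the peaks of Emp3, Hcst, Lrch4, Plec and Evi2b also cover a CpG-rich start.

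Genes of macrophage identity and of cell-surface receptors had low-CpG peaks far more often than the 5.50% of all protein-coding genes. Their lists were also richer in low-CpG 5′ ends than all protein-coding genes (40.0%). Such ends made up 76.9% for macrophage identity, 90.6% for Fc and paired receptors, and 100% for C-type lectin receptors and the Ms4a family. The part of this in the contrast was not tested. Each of these lists also lay above the acetylated share of low-CpG 5′ ends (8.54%), although that share counts 5′ ends alone and the lists count any coding start. The lists were chosen with earlier results of these data known, and the counts describe them without a test. Of 26 genes of macrophage identity and lineage, 13 had a low-CpG peak (50%) and 20 had any promoter peak. Besides Csf1r, Tyrobp, which encodes the signalling adaptor DAP12 of many activating myeloid receptors, had a fold of 36.2 (34.2 and 34.2 in the replicates). The phagocyte marker genes Mrc1 (mannose receptor), Adgre1 (F4/80) and Itgam (the integrin chain CD11b) had 26.5, 23.7 and 23.3, although Itgam shares its start with Gm49368. Of the transcription factor genes of the same list, Cebpa, Cebpb and Irf8 had ratios of 0.89, 1.01 and 0.74 at their 5′ ends and stood outside the class. The PU.1 gene Spi1 was low in CpG, at 0.176, and was left out by the midpoint of its peak.

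Fc receptors and paired immunoglobulin-like receptors bind antibody or set the threshold of activation, and 17 of their 32 genes (53.1%) had a low-CpG peak, against 2 with a peak at a CpG-richer start. Cd48, a ligand and receptor of the SLAM family, led with 33.5 (29.3 and 32.8), followed by Fcgr3, an activating receptor for IgG, with 31.8 (28.5 and 29.0). C-type lectin receptors, which recognize glycans and dying cells, counted 10 of 21 (47.6%), and each gene of that list with a promoter peak by the rule was in the class. Clec2d (39.0), Clec4d (32.1) and Clec4n (24.8) had low-CpG 5′ ends inside peaks whose midpoints lay over 1 kb away, and are not counted. Clec4a2, which encodes an inhibitory member, had 37.3 (35.1 and 33.5) and Clec12a 27.2 (28.2 and 21.0). The Ms4a family of tetraspan membrane proteins counted 7 of 16 (43.8%), led by Ms4a6c with 29.5 (25.8 and 29.6) and Ms4a6b with 23.6 (16.4 and 18.9). Replicate 1 was the higher for Clec12a and replicate 2 for the Ms4a pair. Members of these receptor families have close relatives in the genome, and reads that align equally well to several copies may be lost or shared, which was not tested.

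Sensors and their products were also represented. Toll-like receptors and co-receptors counted 9 of 17 (52.9%), with the lipopolysaccharide receptor gene Tlr4 at 43.02 (40.57 and 43.14). Chemoattractant receptors counted 8 of 26 (30.8%), led by Ptafr, the receptor for platelet-activating factor, at 32.1 (27.9 and 31.3) and the complement receptor gene C5ar2 at 29.4 (28.7 and 26.1). Chemokines, which draw leukocytes to a site, counted 4 of 29 (13.8%), led by Ccl3 at 35.31 (38.03 and 33.75) and Ccl12 at 27.9 (21.4 and 26.8). Of 21 low-CpG 5′ ends in the chemokine list, 8 lay inside a peak. Ccl4 (30.1), Ccl9 (26.6), Ccl2 (24.4) and Ccl7 (22.6) had such ends inside peaks whose midpoints lay over 1 kb away, and are not counted. The same held for the chemoattractant receptor genes C3ar1 (37.2) and C5ar1 (31.4). Inflammatory cytokines and enzymes counted 8 of 26 (30.8%). Nlrp3, which forms an inflammasome, had 42.6 (41.2 and 41.1) and Tnf 40.1 (37.0 and 37.5), while Il23a, a subunit of interleukin-23, was weak at 4.82 and absent from replicate 2. Nlrp3 and Tnf thus carried the mark in cells that had received no stimulus.

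Interferon-inducible genes counted 21 of 39 (53.8%), close to the share of the Fc and paired receptors, and 31 of the 39 had a promoter peak at any start. Counted by low-CpG 5′ ends inside a peak, the numbers were 21 of 39 for this list, 22 of 32 for Fc and paired receptors and 16 of 26 for macrophage identity. Slfn2, which keeps lymphoid and myeloid cells quiescent, had 38.1 (32.9 and 36.7) and Irf9, a subunit of the factor that carries the interferon signal to the nucleus, 30.2 (25.6 and 30.0). The median fold of the listed members was 12.8, against 8.79 over all low-CpG peaks. Leukocyte integrins counted 5 of 14, with Itgb5 at 18.3 (18.6 and 14.1) after Itgam. The Itgb5 start lies 62276 bp from the annotated 5′ end. The median fold of the integrin members was 4.17, below that of all low-CpG peaks, and 7 of the 14 genes had a peak at a CpG-richer start. Of the 7 low-CpG 5′ ends in the integrin list, 6 lay inside a peak. The integrin gene Itgb2 (26.6) had such an end inside a peak whose midpoint lay over 1 kb away, and is not counted. Lysosomal proteases and hydrolases counted 4 of 30 (13.3%), while 9 more had a promoter peak at CpG-richer starts alone. Of their 12 low-CpG 5′ ends, 7 lay inside a peak. The 4 were led by Tpp1, a peptidase, at 30.2 (26.2 and 29.7) and Ctsk, which encodes cathepsin K, at 19.3 (18.6 and 17.6).

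Lists of other lineages ranged from no member to a share above the 5.50% of all protein-coding genes, and housekeeping lists lay below it. Low-CpG 5′ ends were found in 26 of 26 T and NK cell markers and 23 of 24 neutrophil and mast cell genes. They were found in 5 of 83 ribosomal protein, 5 of 39 proteasome and 8 of 79 oxidative phosphorylation genes. Few of those housekeeping genes could thus enter the class at their 5′ ends. The shares of T and NK cell markers (7.69%) and of neutrophil and mast cell genes (8.33%) lay close to the acetylated share of low-CpG 5′ ends (8.54%). The lists count any coding start, whereas that share counts 5′ ends alone. Markers of B cells counted 4 of 18 (22.2%), with Bank1, an adaptor of B cell receptor signalling, at 21.0 (19.4 and 19.9) after Blnk. T and NK cell markers counted 2 of 26 (7.69%), Cd28 (23.7) and Cd3d (9.95). The Cd28 start lies 29558 bp and the Cd3d start 4037 bp from the annotated 5′ end. Neutrophil and mast cell genes counted 2 of 24 (8.33%), which were Csf3r (17.7) and Mmp8 (3.15). Hepatocyte and epithelial markers counted 1 of 22 (4.55%; Trf, which encodes transferrin, 28.5), and erythroid and fibroblast markers 0 of 19 and 0 of 18. Housekeeping complexes were acetylated at CpG-richer starts, as 74 of 83 ribosomal protein genes, 31 of 39 proteasome genes and 64 of 79 oxidative phosphorylation genes had a promoter peak but 1, 1 and 2 had one at a low-CpG start. The proteasome gene was Psmb10 (26.0), an interferon-inducible subunit of the immunoproteasome. The others were Rps14 (5.75), Ndufa6 (10.2) and Cox7a1 (6.62). The Trf and Rps14 peaks also cover a CpG-rich start. Olfactory receptor genes, nearly all low in CpG, counted 9 of 1134 (0.794%), the strongest being Olfr111 at 32.9 (31.1 and 29.8) and Olfr550 at 15.5 (13.8 and 15.9). The Olfr111 start lies 17930 bp and the Olfr550 start 7027 bp from the annotated 5′ end.

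**Figure D4:**
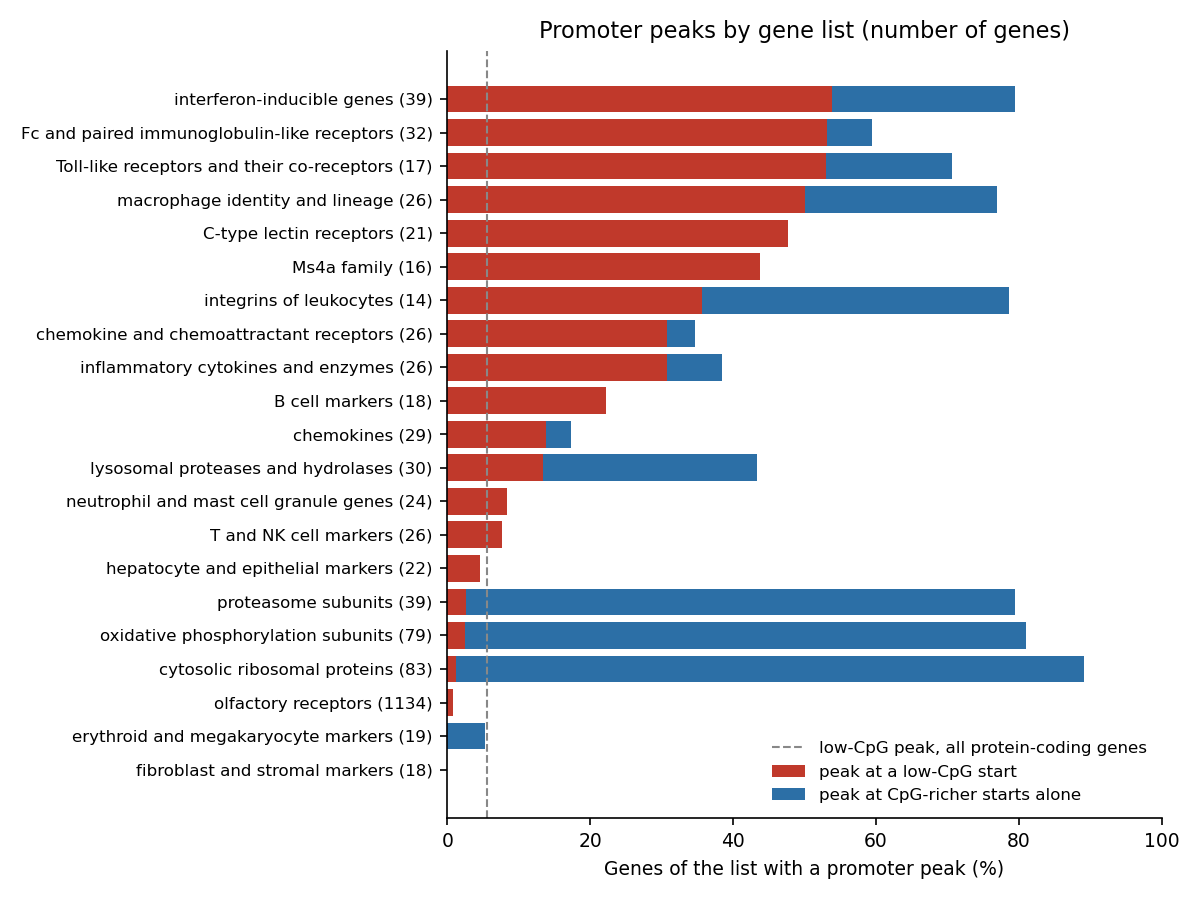
Percentage of genes in each of 21 lists with a promoter peak at a low-CpG start (red) or at CpG-richer starts alone (blue), with the number of genes in brackets; the dashed line is the 5.50% of all protein-coding genes with a low-CpG peak. Immune receptor and interferon lists reach 53.8% in red, while ribosomal, proteasome and respiratory lists are almost wholly blue.

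The class holds a range of CpG content and its edge is not a natural gap. The lowest ratios were those of Nlrp1b, an inflammasome sensor (0.0190), Elavl1 (0.0213), Olfr110 (0.0272), Clca4b (0.0292) and Olfr552 (0.0304). The Nlrp1b peak had a fold of 24.6 (23.7 and 22.5), whereas those near Elavl1 and Clca4b (3.15 and 2.81) were in neither replicate list. Just under the threshold stood Rhoj (0.39996, fold 6.40), Tap2 (0.39980, fold 11.3) and Nudt19 (0.39931, fold 3.06). Just above it stood Picalm (0.40004, fold 20.4), Qpct (0.40046, fold 4.82) and Enox2 (0.40057, fold 9.37). The strongest low-CpG peaks that lacked an overlap in a replicate list were those of Cracr2a (5.47, absent from replicate 1), Il23a (4.82), Plekha4 (4.82, absent from replicate 1), Ermard (4.82, absent from replicate 2) and H2-DMb1 (4.75, absent from replicate 2).

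Low-CpG promoter peaks of neighbouring genes lay together more often than their share of promoter peaks. Where the nearest promoter peak of another gene was within 50 kb, it was itself low in CpG for 207 of 755 low-CpG peaks (27.4%), against 544 of 5460 others (9.96%). Low-CpG peaks less than 50 kb apart formed 112 runs with more than 1 gene, which held 299 of the low-CpG peaks (22.0%). The run with the most genes spanned 6 Trim genes from Trim34a to Trim30c on chromosome 7, with folds of 4.08 to 22.9. A run of 5 Cd300 receptor genes on chromosome 11 had folds of 2.88 to 29.2, one of Ifit genes on chromosome 19 had 2.84 to 16.2, and Prrc2a, Aif1, Lst1 and Tnf on chromosome 17 had 12.2 to 40.1. These runs were picked from the data for their size and gene families.

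The midpoint rule leaves out some of the widest peaks. Of 746 low-CpG 5′ ends that lay inside a peak, 143 (19.2%) were over 1 kb from its midpoint, and 117 of those belonged to genes with no low-CpG promoter peak by the rule. The peaks concerned had a median width of 5001 bp and a median fold of 29.2. The macrophage markers Spi1, which encodes PU.1 (fold 54.9, 8688 bp), Cd68 (48.1, 6060 bp) and Lyz2 (22.9, 12382 bp) were among them, as were Laptm5 (53.2), Trem2 (52.9), Siglec1 (50.6), Fcer1g (42.5) and Mpeg1 (40.2), the last 5 picked after their values were seen. The counts of members for the gene lists above are therefore counts by the rule, and 16 of the 20 low-CpG 5′ ends in the macrophage identity list lay inside a peak.

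Low-CpG starts with a peak differed from those without a called peak in the letters they hold. The window of 250 bp before to 50 bp after the start was searched on both strands for 15 motifs at 1322 acetylated low-CpG starts, 20091 low-CpG starts with no peak, 8789 other acetylated starts and all 54327 coding starts. The PU.1 letters GAGGAAGT stood in 10.1% of acetylated low-CpG windows (interval 8.62 to 11.9), against 2.95% without a peak, 2.71% at CpG-richer acetylated starts and 2.95% of all. The replicate lists gave 10.4% and 10.5%. The share was 8.46%, 6.89%, 10.1% and 15.1% over the quartile bins of fold, from low to high. It was 13.2% within 1 kb of a gene 5′ end and 6.80% at starts further inside.

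Other letters of myeloid and inducible factors were also more frequent at acetylated low-CpG starts than at low-CpG starts without a peak. The PU.1-IRF composite GGAANNGAA stood in 13.2%, against 8.67%, and in 7.74% of all starts. The interferon response letters GAAANNGAA stood in 14.3%, against 11.1% (8.49% of all), the AP-1 letters TGANTCA in 13.3%, against 9.79% (6.57% of all), and the RUNX letters TGTGGTTT in 4.01%, against 2.37% (1.51% of all). The NF-kB letters GGAATTTCC were rare, at 1.06% against 0.368% (0.335% of all). The composite overlapped the PU.1 letters in 6 and the interferon letters in 11 of the 1322 windows. The C/EBP letters TTGCNNAA, at 12.7% against 13.4% (9.85% of all), and the CCAAT box, at 32.1% against 37.6% (35.9% of all), were not more frequent.

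The TATA box went the other way. TATAAA stood in 10.1% of acetylated low-CpG windows, against 20.1% of low-CpG windows without a peak, 4.98% of CpG-richer acetylated windows and 11.3% of all. On the gene's strand between 43 and 18 bp upstream it stood in 1.82%, against 3.04%, 0.592% and 1.60%. The windows differed in base composition, with a median GC content of 51.0% at acetylated low-CpG starts, 47.0% at low-CpG starts without a peak and 62.7% at CpG-richer acetylated starts, and its part in these shares was not tested. Motifs that hold a CpG were rarer in the low-CpG class than at CpG-richer acetylated starts, which the rule itself favours. The ETS core CCGGAAG stood in 5.90% against 22.5% (10.7% of all), the GC box GGGCGG in 19.3% against 69.9% (43.1% of all), and the E-box CACGTG in 4.99% against 11.1% (7.44% of all). The cAMP response letters TGACGTCA stood in 0.832% against 3.47% (2.06% of all), the NRF1 letters GCGCATGC in 0.454% against 6.42% (3.24% of all), and the YY1 letters AAGATGGCG in 0.0756% against 4.22% (1.89% of all). Among low-CpG starts, the ETS core (5.90% against 1.81%) and the GC box (19.3% against 8.99%) were more frequent at acetylated starts than at those without a peak. Both hold a CpG, and the acetylated low-CpG starts were themselves the richer in CpG. Their median observed/expected ratio was 0.247, against 0.194 without a peak, and its part in these shares was not tested.

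**Figure D5:**
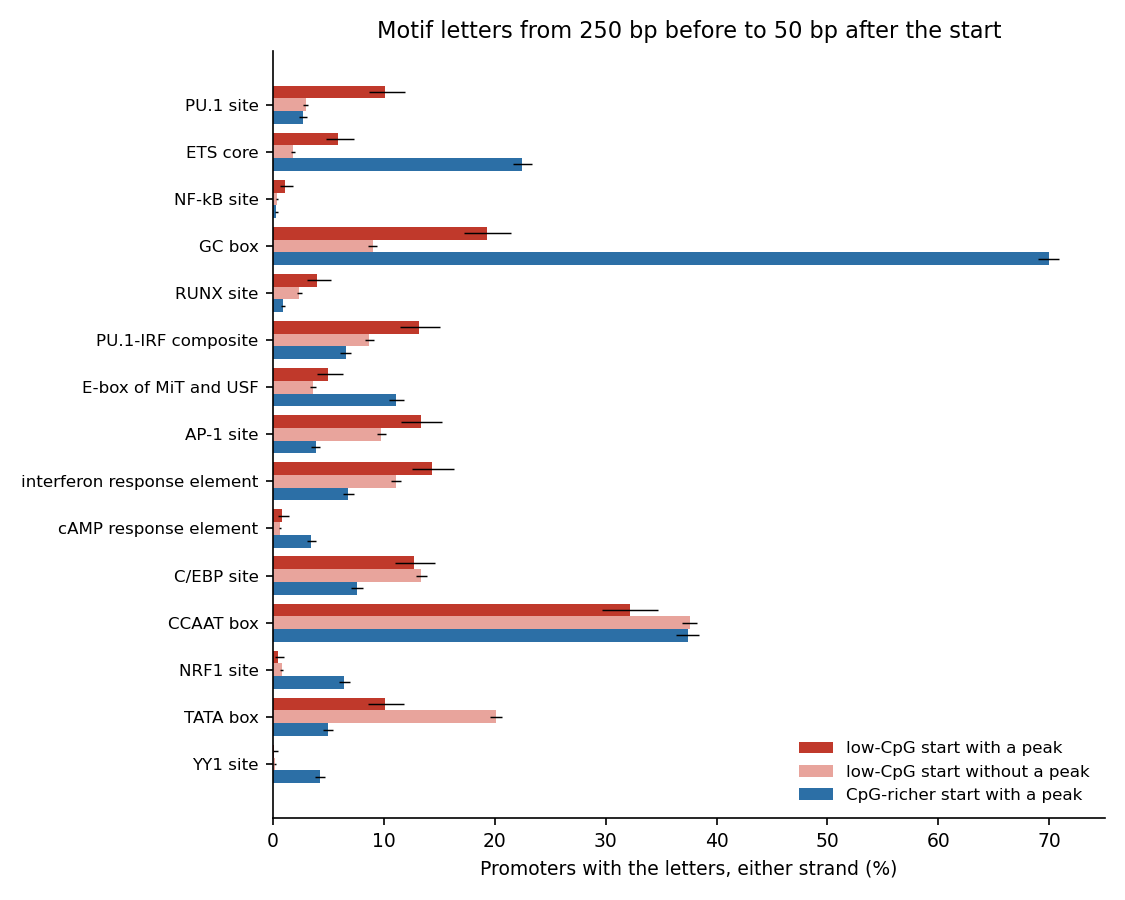
Percentage of windows from 250 bp before to 50 bp after the start that hold the letters of each of 15 motifs on either strand, for low-CpG starts with a peak (red, n = 1322), low-CpG starts without a peak (pink, n = 20091) and CpG-richer starts with a peak (blue, n = 8789), with 95% Wilson intervals; motifs run from the highest to the lowest ratio of red to pink. The PU.1 letters are at 10.1% in red against 2.95% in pink, and TATAAA at 10.1% against 20.1%.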

How the data were processed

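H3K27ac ChIP-seq peaks of unstimulated bone-marrow-derived macrophages were analysed from 4 deposited lists on mm10, of 1 group of 2 replicates. Text listings that came with the deposited lists trace each replicate list to the alignments of that replicate, and trace the replicated and the pooled list to both libraries. Column 7 of the deposited lists is the authors' fold, a linear ratio to a control or background file, used only within a list. Column 9 holds q-values that the authors deposited as −log10, and served 1 alternative threshold. The aligner, the peak caller, their settings and the depth are not given in the sources used here, and no interval for depth can be had.

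Starts were those of 54327 positions of protein-coding transcripts (GENCODE M21, 21938 genes, leaving out the mitochondrial chromosome). CpG and motifs were read from GRCm38 patch 6, the assembly of mm10, with pysam 0.24.0. A peak was in a replicate list if it overlapped one of its peaks by at least 1 bp. Percentile ranks and deciles were taken over all peaks of a list. Peaks are not replicates, so no p was computed over them, and intervals are 95% Wilson intervals that cover counting error only. Functions were tested on simulated data.

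The members, the 21 gene lists and the 15 motifs were chosen with earlier results of these data known. Named genes are the 15 low-CpG peaks of highest fold, the 2 of highest fold in each list, the 5 widest, the 5 of lowest ratio, the 5 strongest absent from a replicate list, and 3 on either side of the threshold, beside the cell type markers. Alternatives were other CpG thresholds and windows, midpoint distances, start sets, a −log10 q of at least 5, the pooled list, a stricter overlap, another motif window and each replicate list alone. Some promoter sequences are not reported here.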

Additional observations from a re-analysis of the deposited data

How the results depend on the processing

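No paired analysis was possible because the series has 1 group, so that replicate numbers pair no samples. The width ratio, the rank difference and the share of peaks over the start kept their direction under every alternative run. The low-CpG share of promoter peaks (12.4%) was 8.53% under a threshold of 0.3 and 16.8% under 0.5, 12.2% and 14.5% with CpG windows of 500 bp and 2 kb, 13.6% and 15.3% with midpoints within 500 bp and 2.5 kb, 8.39% with gene 5′ ends alone, 13.8% without starts that have another gene within 1 kb, 12.2% at a −log10 q of at least 5, and 12.6 to 12.8% with a replicate left out. The width ratio (1.88) was 1.97 under 0.3, 1.70 under 0.5, 1.74 with the 2 kb window and 1.66 within 2.5 kb. The rank difference (8.49 points) was 5.31 with the 2 kb window, 2.60 within 2.5 kb, 10.3 with 5′ ends alone, and 9.20 to 11.1 with a replicate left out. The difference in presence in both lists (1.34 points) was 2.85 within 500 bp, 3.20 with 5′ ends alone and -1.92 within 2.5 kb. The acetylated share of low-CpG 5′ ends (8.54%) is itself the setting of 5′ ends alone. It was 6.73% and 10.7% under 0.3 and 0.5, 8.87% and 9.53% with the 500 bp and 2 kb windows, 5.78% and 13.1% within 500 bp and 2.5 kb, 8.10% without starts near another gene, 8.37% at the stricter q, 8.49% in the pooled list, and 8.04 to 8.10% with a replicate left out. The PU.1 letters (10.1%) stood in 12.6% of windows of 500 bp.

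Alternatives chosen after the data were seen used starts of all transcripts of protein-coding genes, which gave a share of 17.1%, a width ratio of 1.78, a rank difference of 3.51, a difference in presence of -1.71 and a difference in start coverage of 29.1 points (37.0 as reported). Without peaks that cover a CpG-rich start the rank difference was 5.16 and the difference in presence -0.310. Joined peaks gave a width ratio of 1.32. The difference in start coverage was 41.9 points with 5′ ends alone and 26.9 for peaks of over 1 to 2 kb. The causes of these changes were not tested. The sign of the difference in presence in both lists changed between these settings. All values rest on 2 libraries from 1 donor entry and on lists whose depth is not stated.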

Other observations

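By chromosome, chromosome 7 had the largest number of low-CpG promoter peaks, 157 of its 865 promoter peaks (18.2%), against 12.4% over all chromosomes. The other chromosomes with over 50 such peaks ranged from 9.49% on chromosome 9 to 14.8% on chromosome 15.

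Low-CpG peaks near Olfr550 and Olfr552 lie on chromosome 7 at 102577388 to 102579633 and 102597160 to 102598244 (GRCm38). Their folds were 15.5 and 4.73, and both were present in each replicate list. Both peaks cover the coding start nearest to them. The start at Olfr550 lies 7027 bp from the annotated 5′ end of that gene.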
